A study of Mus musculus with 4 samples.

Results

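The actins and tropomyosins of mouse gastruloids were followed over 11 days of culture as 10 genes, 6 encoding actins (*Acta1*, *Actc1*, *Acta2*, *Actg2*, *Actb*, *Actg1*) and 4 encoding tropomyosins (*Tpm1*, *Tpm2*, *Tpm3*, *Tpm4*). They were found by symbol among the 32286 genes listed for days 4, 5 and 6 and the 32287 listed for day 11, and each symbol matched 1 entry. Gastruloids, aggregates that develop from mouse embryonic stem cells, were grown from the wild type line Zx1. All of them received a pulse of the Wnt activator Chiron before day 4. From day 4 on the medium held bFGF, VEGF and ascorbic acid. Only the gastruloids taken at day 11 were later moved back to plain N2B27 medium, so the days also differed in the medium received. Pooled gastruloids were dissociated at days 4, 5, 6 and 11 and made into 1 single-cell library for each day, from the 3' ends of messenger RNA. No difference below therefore has a replicate check, and day, medium and library cannot be told apart.

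Actin forms the thin filament of muscle and the cytoskeleton of every cell. *Acta1* and *Actc1* encode the sarcomeric actins of skeletal and cardiac muscle, *Acta2* and *Actg2* the actins of vascular and visceral smooth muscle, and *Actb* and *Actg1* the cytoplasmic actins. Developing heart and skeletal muscle are known to use *Acta2* and *Actc1* early. Tropomyosin lies along the actin filament. *Tpm1* is the main tropomyosin gene of the heart, *Tpm1* and *Tpm2* serve skeletal muscle, and *Tpm3* and *Tpm4* provide many of the forms of non-muscle cells.

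The kept cells numbered 6555, 6457, 5254 and 7850 at days 4, 5, 6 and 11, with median depths from 11433 UMIs (unique molecules counted) at day 11 to 28171 UMIs at day 5. Of the barcodes of 1 library, at most 0.295% were also found in another. Cells were put into classes by 3 genes that are not members. Myl7-high cells had at least 3000 CPM of *Myl7*, a myosin light chain gene of all embryonic cardiomyocytes that is enriched in atrial ones. CPM is the UMIs of a gene for every 1000000 UMIs. Myog-positive cells had at least 1 UMI of the myogenic factor *Myog*, and Cdh5-positive cells at least 1 UMI of the endothelial cadherin *Cdh5*. All remaining cells were called other. Myl7-high cells numbered 0, 0, 424 and 1267 over the 4 days, Myog-positive cells 5, 4, 3 and 178, Cdh5-positive cells 18, 199, 426 and 424, and other cells 6532, 6254, 4393 and 5952. Cells that met more than 1 rule, 8 at day 6 and 29 at day 11, were set aside, and a class under 20 cells was only counted. The limit of 3000 CPM cut through a continuum: at day 6, 127 cells lay between 1500 and 3000 CPM of *Myl7* and 121 between 3000 and 6000 CPM, and at day 11 these numbers were 81 and 172. Of the 197 cells of day 11 with *Myog*, 70 held a single UMI.

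The classes carried the markers of their lineage. At day 11 all 10 cardiomyocyte markers were at least 2-fold higher in Myl7-high than in other cells, all 10 skeletal muscle markers in Myog-positive cells and all 8 endothelial markers in Cdh5-positive cells. The summed cardiomyocyte markers stood at 531 CPM in the other cells of day 11, and the summed skeletal muscle markers at 8.02 CPM. The Myog-positive cells also had 4 of the 10 cardiomyocyte markers at least 2-fold higher, namely *Tnnt2*, *Actn2*, *Ttn* and *Myl4*, while *Nkx2-5*, *Ryr2*, *Tnni3* and *Myl3* were lower there than in other cells. Of 6 smooth muscle markers, 5 at day 6 and 4 at day 11 were at least 2-fold higher in Myl7-high cells, among them *Cnn1* (167 CPM against 2.31 CPM at day 11) and *Myocd* (53.8 CPM against 3.51 CPM), whereas *Myh11* was at 5.11 CPM. Each UMI stands for the 3' end of 1 molecule, so levels are not scaled by transcript length. Whether different genes were captured and counted equally well was not tested, and shares among genes rest on that. The splice forms of a gene cannot be told apart. The intervals below are at 95% and cover counting error only.

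Promoter sequences of 4 actin genes are shown to set the members with an exact CArG box beside one in which no exact box was found. RefSeq promoter windows on the GRCm38.p6 assembly, from 250 bases before to 50 after the gene start, were given for 8 of the 10 genes, those other than *Actb* and *Actg2*. They were searched for the CArG box, the site of serum response factor, whose form reads the same on both strands. An exact box was present in 3 of the 8, compared with 1.81% of the 27025 genes with a full window. Of the thin filament and actin binding genes described below, 3 of the 35 with a window had one, *Cnn2*, *Nebl* and *Srf*. The last 150 bases before the start of 4 actin genes follow on their own strand, the minus strand in each case, with the box in capitals. They lie at chr8:123894776-123894925 for *Acta1*, chr2:114052876-114053025 for *Actc1*, chr11:120348496-120348645 for *Actg1* and chr19:34255374-34255523 for *Acta2*.
Acta1: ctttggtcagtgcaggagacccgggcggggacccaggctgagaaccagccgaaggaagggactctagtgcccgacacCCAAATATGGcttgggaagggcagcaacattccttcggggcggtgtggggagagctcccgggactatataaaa
Actc1: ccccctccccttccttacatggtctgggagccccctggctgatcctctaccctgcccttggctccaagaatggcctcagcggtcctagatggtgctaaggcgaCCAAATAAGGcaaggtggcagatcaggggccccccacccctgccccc
Actg1: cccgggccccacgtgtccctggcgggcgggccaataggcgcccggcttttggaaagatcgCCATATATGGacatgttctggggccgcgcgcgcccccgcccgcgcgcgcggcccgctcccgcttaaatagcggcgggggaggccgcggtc
Acta2: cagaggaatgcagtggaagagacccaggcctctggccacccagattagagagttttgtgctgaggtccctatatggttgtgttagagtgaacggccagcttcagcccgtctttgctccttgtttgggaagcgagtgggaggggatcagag
The boxes of *Acta1*, *Actc1* and *Actg1* began 73, 47 and 90 bases before the start. No exact box was found in the windows of *Acta2*, *Tpm1*, *Tpm2*, *Tpm3* or *Tpm4*, which says only that these letters were not in this stretch. Near forms, such as the ccctatatgg in the printed stretch of *Acta2*, were not counted, so a CArG box of *Acta2* is not excluded.

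At day 4 the actin of the gastruloids was almost wholly cytoplasmic, and at day 11 a sizeable part of it was sarcomeric. Taken over all kept cells, *Acta1* and *Actc1* together made 0.0660%, 0.385%, 6.45% and 28.4% of the actin UMIs at days 4, 5, 6 and 11. The 28.4% of day 11 (interval 28.4% to 28.5%) weighs cells by their UMIs, and the mean of the cells' own shares was 13.1%. *Actc1* went from 2.54 CPM at day 4 to 9.92, 474 and 2541 CPM at the later days. *Acta2* stood at 4.46, 8.88, 463 and 633 CPM, so it was near its day-11 level already at day 6, while *Actc1* was not. With each cell thinned to 5000 UMIs the sarcomeric share of day 11 was 19.9%. The cytoplasmic actins moved far less: *Actb* lay between 2407 CPM (day 4) and 3720 CPM (day 6), and *Actg1* between 1828 and 2725 CPM at the same days.

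Among the tropomyosins the share of *Tpm1* was higher at later days and that of *Tpm3* lower. *Tpm1* was at 329, 511, 726 and 3076 CPM over the 4 days, which was 40.7%, 54.6%, 55.0% and 82.7% of the tropomyosin UMIs. *Tpm3* kept a level between 227 and 273 CPM at every day and its share went from 33.7% to 6.10%. *Tpm2* was highest at day 11 (195 CPM) and *Tpm4* was lowest at day 5 (107 CPM). In bulk over all cells, more cells of a muscle class and more RNA in each cell cannot be told apart, and the classes are therefore described next.

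**Figure D1:**
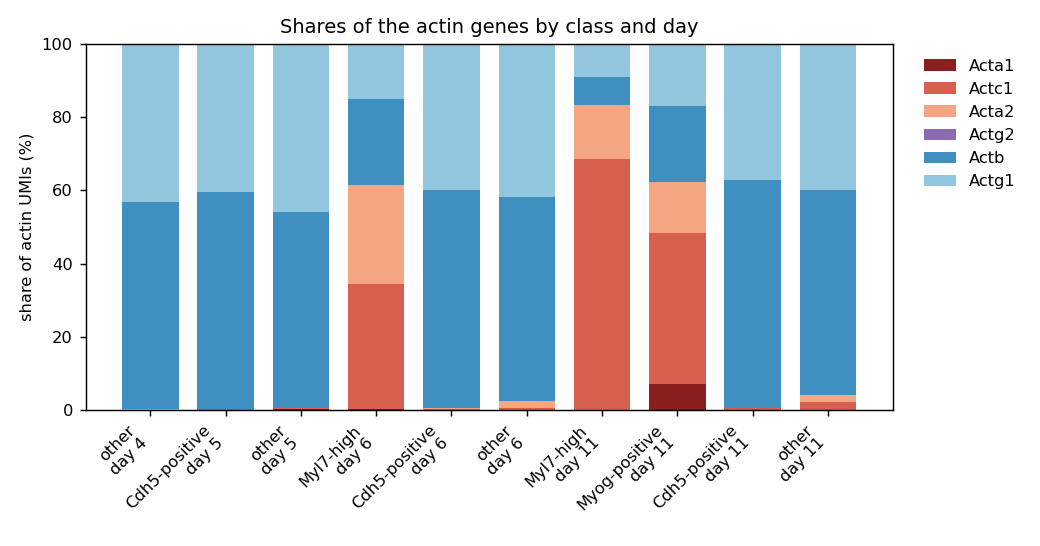
Share of each actin gene among the actin UMIs (%, vertical axis) in every class of at least 20 cells, by day. Cytoplasmic *Actb* and *Actg1* (blue) fill the bars of other and Cdh5-positive cells, while *Actc1* (red) and *Acta2* (light orange) make up 34.3% and 26.9% of Myl7-high actin at day 6 and 68.4% and 14.8% at day 11, and *Acta1* (dark red) reaches 7.06% in Myog-positive cells.

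Myl7-high cells of day 6 expressed 3 kinds of actin side by side. *Actc1* was at 5972 CPM, *Acta2* at 4695 CPM and *Actb* at 4102 CPM, against 27.0, 126 and 3540 CPM in other cells of the same library. Sarcomeric actin made 34.4% of their actin UMIs (34.2% to 34.7%), smooth muscle actin 26.9% and cytoplasmic actin 38.6%. *Tpm1*, at 5332 CPM, already made 88.1% of tropomyosin. At day 11 *Actc1* dominated. It stood at 9637 CPM, *Acta2* at 2079 CPM, *Actb* at 1086 CPM and *Actg1* at 1271 CPM, and *Tpm1* at 10922 CPM. The sarcomeric share was 68.5% (68.4% to 68.7%), the *Acta2* share 14.8% and the *Tpm1* share 97.4%.

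From day 6 to day 11 the class thus differed in opposite directions for the actins of muscle. *Actc1* was 1.61 times its day-6 level (1.60 to 1.63) and *Tpm1* 2.05 times, whereas *Acta2* was at 0.443 and *Actb* at 0.265 of theirs. *Tpm3* and *Tpm4* were at 0.268 and 0.218 of their day-6 levels. In other cells the same step gave ratios of 0.983 for *Acta2*, 1.13 for *Actb*, 1.011 for *Tpm3* and 1.20 for *Tpm4*. Myl7-high cells above 20000 CPM of *Myl7* numbered 54 of 424 at day 6 and 425 of 1267 at day 11. Their total actin stood at 26736 CPM at day 6 and 16490 CPM at day 11, with sarcomeric shares of 55.8% and 73.6%. *Actc1*, nearly all of that share, was thus lower there at day 11. In Myl7-high cells with up to 10000 CPM of *Myl7* it was higher. *Acta1* was low in the class at both days, at 30.6 and 14.1 CPM. The number of actin UMIs for each tropomyosin UMI was 2.88 at day 6 and 1.26 at day 11, against 6.88 and 5.42 in other cells.

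**Figure D2:**
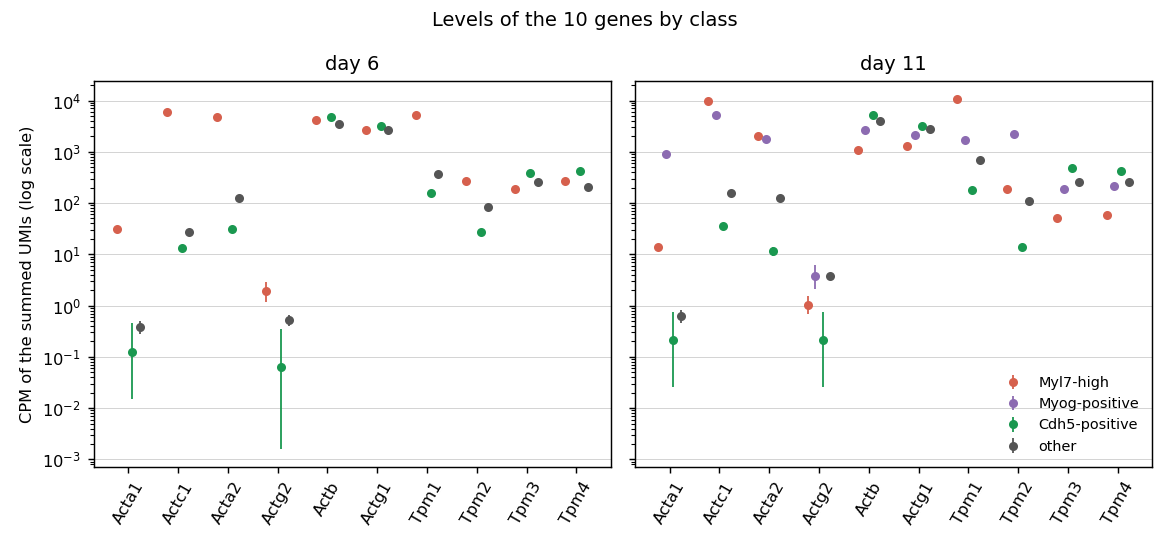
Level of each gene (CPM of the summed UMIs, log scale) in the classes at day 6 and day 11, with 95% counting intervals. *Actc1*, *Acta2* and *Tpm1* of Myl7-high cells stand above the other cells at both days, whereas *Actb*, *Tpm3* and *Tpm4* of Myl7-high cells lie below them at day 11.

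A count of genes past 2-fold places these differences. Among 9800 genes with at least 5 CPM at day 6, 5.96% were at least 2-fold higher in Myl7-high than in other cells and 10.0% at least 2-fold lower. Of the 10 members 8 passed that minimum, and 4 were higher (*Actc1*, *Acta2*, *Tpm1* and *Tpm2*) and none lower. At day 11, where 10407 genes passed, the shares were 9.83% higher and 20.9% lower, and of 9 members 4 were higher (*Acta1*, *Actc1*, *Acta2* and *Tpm1*) and 4 lower (*Actb*, *Actg1*, *Tpm3* and *Tpm4*). *Acta1* passed the minimum at day 11 through the Myog-positive cells, and *Actg2* passed at neither day. The median ratio over the tested members was 2.25 at day 6 and 1.69 at day 11, and over all tested genes 0.924 and 0.802. The *Actg1* ratio of day 11, 0.447, was 0.514 with cells thinned to 5000 UMIs and classes drawn anew.

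Inside the Myl7-high class of day 6 the actin kinds followed the *Myl7* level. The sarcomeric share was 13.2% in the 206 cells with 3000 to 10000 CPM of *Myl7*, 40.9% in the 164 cells up to 20000 CPM and 55.8% in the 54 cells above. The share of smooth muscle actin, nearly all *Acta2*, was 20.7%, 30.3% and 30.2% in these sets and so differed less. *Actb* stood at 5509, 3215 and 2158 CPM and *Tpm4* at 329, 232 and 154 CPM, against 3540 and 210 CPM in other cells, so *Actb* was above the other cells only in the set nearest the *Myl7* limit. At day 11 the sarcomeric share lay closer together, at 61.8%, 66.6% and 73.6% of the same 3 sets. Cell by cell, the sarcomeric share had a median of 21.8% at day 6 (5th to 95th percentile 0.0425% to 67.5%) and 82.0% at day 11 (4.38% to 97.0%). More than 50% of the actin UMIs were sarcomeric in 80 of 424 cells at day 6 and in 928 of 1257 cells at day 11, counting cells with at least 10 actin UMIs.

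The wide range of day 11 went with markers of cardiomyocyte type. *Shox2* marks the pacemaker lineage and *Myl2* the ventricular one. In the 541 Myl7-high cells with at least 200 CPM of *Shox2*, *Acta2* stood at 3447 CPM, against 1025 CPM in the 726 cells below that limit, a ratio of 3.36 (3.30 to 3.43). *Actc1* differed little between them, at 9534 and 9716 CPM. *Actb* (1548 against 729 CPM) and *Tpm2* (271 against 124 CPM) were also higher with *Shox2*. The sarcomeric share was 58.7% with *Shox2* and 78.4% without.

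The 340 cells with at least 1000 CPM of *Myl2* showed the opposite make-up. Their *Acta2* level was 576 CPM against 2723 CPM in the 927 remaining cells, a ratio of 0.211 (0.205 to 0.218), and their *Actb* level 367 against 1393 CPM. The sarcomeric share was 88.3% against 61.5%, and it passed 50% in 337 of 339 cells with *Myl2*. *Tpm1* was nearly level, at 10548 and 11082 CPM, whereas *Tpm2* was at 73.9 and 237 CPM. *Nppa* is a gene of both atrium and ventricle during development, so it does not mark atrial cells here. The 42 cells with at least 1000 CPM of *Nppa* resembled the *Myl2* cells in their sarcomeric share (88.2%), and held 0.907 actin UMIs for each tropomyosin UMI. How many of them also passed the *Myl2* limit was not counted.

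**Figure D3:**
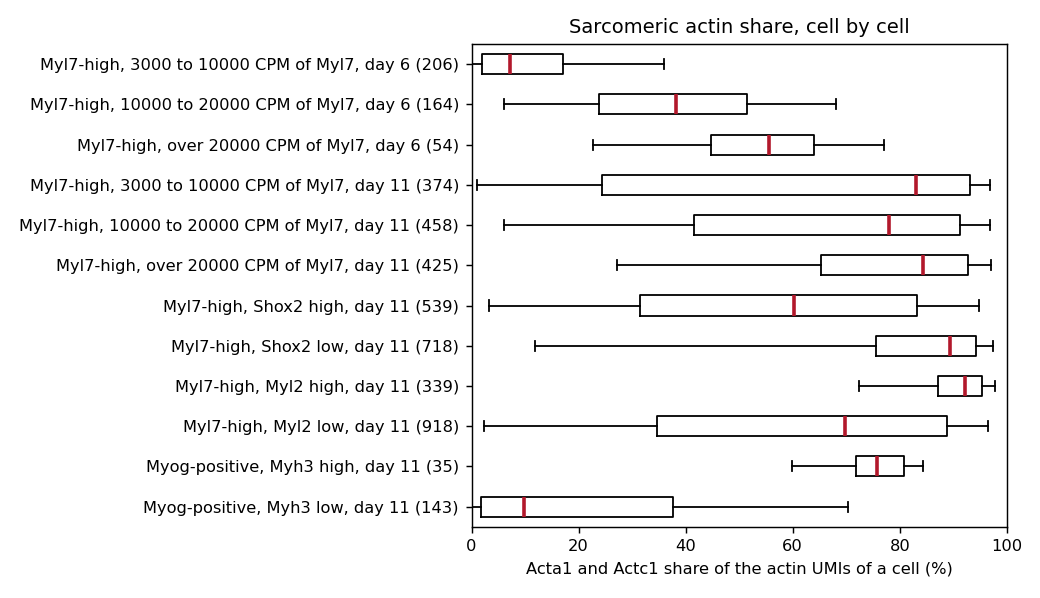
Share of *Acta1* and *Actc1* among the actin UMIs of single cells (%, horizontal axis) in sets of Myl7-high and Myog-positive cells, with the number of cells in brackets. Boxes span the 25th to 75th percentiles, whiskers the 5th to 95th, and red lines mark medians: 7.18% in the lowest *Myl7* set of day 6, 92.2% in cells with *Myl2* and 75.7% in Myog-positive cells with *Myh3*.

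Myog-positive cells of day 11 had the highest *Acta1* and *Tpm2* levels of the classes of that day. *Acta1* was at 886 CPM, against 14.1 CPM in Myl7-high, 0.211 CPM in Cdh5-positive and 0.625 CPM in other cells. *Tpm2* was at 2235 CPM, against 188, 13.6 and 111 CPM. Yet the main actin of the class was *Actc1* (5168 CPM, 41.2% of actin UMIs), followed by *Actb* (2609 CPM), *Actg1* (2134 CPM) and *Acta2* (1747 CPM), and *Acta1* made 7.06%. The sarcomeric share was 48.2% (47.8% to 48.7%) over the summed UMIs and 31.6% as the mean over cells. *Tpm2* made 51.5% of tropomyosin and *Tpm1* 39.2% (1700 CPM).

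Compared with Myl7-high cells of the same library, the Myog-positive cells had 62.7 times the *Acta1* level, 11.9 times that of *Tpm2* and 0.156 times that of *Tpm1*. *Acta2* differed less, at a ratio of 0.840 (0.820 to 0.862). Cells of the 3 lineages differed also in how many held any *Acta1*: after thinning each cell to 5000 UMIs, 23.2% of Myog-positive, 2.07% of Myl7-high and 0 of 398 Cdh5-positive cells had a UMI of it, the last allowing up to 0.923% by the exact interval. Before thinning these shares were 25.3%, 4.18% and 0.472%, at median depths of 19975, 17421 and 17339 UMIs.

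The 178 cells were far from uniform. The 35 with at least 1000 CPM of the embryonic myosin gene *Myh3* held 3444 CPM of *Acta1*, 15173 CPM of *Actc1* and 7410 CPM of *Tpm2*. The other 143 held 252, 2691 and 953 CPM. The cytoplasmic actins went the opposite way, with *Actb* at 861 against 3042 CPM and *Actg1* at 721 against 2483 CPM. Sarcomeric actin was over 50% of the actin in all 35 cells with *Myh3* and in 21 of the 143 without. *Tpm2* passed 50% of the tropomyosin in 32 of 35 and in 24 of 130 cells that had at least 10 tropomyosin UMIs. *Acta2* was 4.22 times higher with *Myh3* (4498 against 1066 CPM), so that in this class it went with the sarcomeric genes. In Myl7-high cells split by *Shox2* or *Myl2* it was higher where the sarcomeric share was lower, but split by *Myl7* level it was higher where that share was higher, at 1261, 2089 and 2692 CPM in the 3 sets of day 11.

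Against other cells of day 11, 3.48% of the 10407 genes were at least 2-fold higher in Myog-positive cells and 20.8% at least 2-fold lower. Of the 9 members tested, 5 were higher (*Acta1*, *Actc1*, *Acta2*, *Tpm1* and *Tpm2*) and none lower. *Acta1* had to be higher, since without the Myog-positive cells its level was 3.90 CPM, under the minimum. The median ratio over the tested members was 2.47, with *Acta1* among them, and over all tested genes 0.767. The *Tpm1* ratio of 2.47 was 1.47 where the *Myl7* limit was 10000 CPM.

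**Figure D4:**
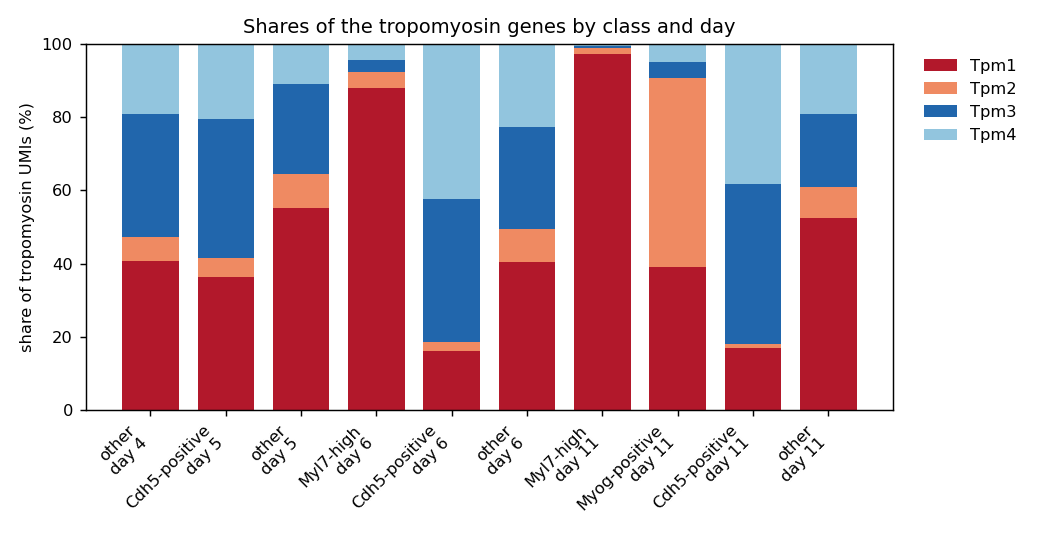
Share of each tropomyosin gene among the tropomyosin UMIs (%, vertical axis) in every class of at least 20 cells, by day. *Tpm1* fills 97.4% of the Myl7-high bar of day 11, *Tpm2* 51.5% of the Myog-positive bar, and *Tpm3* and *Tpm4* 43.6% and 38.3% of the Cdh5-positive bar of day 11.

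Cdh5-positive cells kept to cytoplasmic actin. *Actb* and *Actg1* made 99.9%, 99.5% and 99.5% of their actin UMIs at days 5, 6 and 11, against 99.4%, 97.6% and 96.0% in other cells. The other cells with *Sox2* had shares of 99.8%, 99.4% and 99.1%, so this was not particular to the class. *Actb* was at 3228, 4823 and 5259 CPM, each above the other cells of its day (2688, 3540 and 3983 CPM). *Acta2*, the actin of the smooth muscle around vessels, was at 2.72, 30.5 and 11.4 CPM, each below the other cells (9.14, 126 and 124 CPM). Pericyte markers summed to 37.2 CPM in Cdh5-positive and 142 CPM in other cells of day 11.

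Their tropomyosins changed sides between days 5 and 6. At day 5 *Tpm3* (353 CPM) and *Tpm1* (337 CPM) led and *Tpm4* was at 189 CPM. At day 6 *Tpm4* was at 424 CPM, *Tpm3* at 392 CPM and *Tpm1* at 160 CPM. At day 11 the order was *Tpm3* (473 CPM), *Tpm4* (416 CPM), *Tpm1* (183 CPM) and *Tpm2* (13.6 CPM). *Tpm4* thus made 20.4%, 42.3% and 38.3% of tropomyosin and *Tpm1* 36.4%, 16.0% and 16.8%. From day 5 to day 6 the other cells differed in the same directions, so this step was not particular to the class. Their *Tpm4* stood at 103 and 210 CPM, a ratio of 2.03 beside 2.24 in Cdh5-positive cells. Their *Tpm1* stood at 519 and 374 CPM, a ratio of 0.721 beside 0.476, and still led at both days.

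At day 6, 7.00% of the 9800 genes were at least 2-fold higher in Cdh5-positive than in other cells and 9.40% at least 2-fold lower. Of 8 members tested, *Tpm4* was higher (2.02) and 4 were lower, *Actc1*, *Acta2*, *Tpm1* and *Tpm2*. At day 11 the background was 6.74% higher and 17.2% lower, and of 9 members none was higher and 5 were lower, the same 4 and *Acta1*, for which the class held 2 UMIs and the interval of the ratio reached past 1 (0.0398 to 1.29). The median ratios were 0.856 and 0.338 over the tested members and 0.921 and 0.846 over all tested genes. The *Actc1* ratio (0.494 at day 6 and 0.223 at day 11) rested on few cells on both sides. In the other cells of day 11, 54 cells with mostly sarcomeric actin held 8254 of its 11521 UMIs. With a *Myl7* limit of 1000 CPM the ratio was 0.655 and 0.659, and at day 6 it was 0.587 with doublets left in and 0.551 with every cell of more than 200 genes. With the 8 and 10 cells kept that were positive for *Cdh5* and also Myl7-high, it was 2.78 and 1.13. With those cells kept, *Tpm1* was at 0.583 and 0.523 in place of 0.428 and 0.266, and *Acta2* at day 6 at 0.789 in place of 0.242. The *Tpm4* ratio of day 6 was between 1.85 and 1.97 under 3 other settings.

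Small amounts of muscle actin in the non-muscle classes were read against *Tnnt2*, the cardiac troponin gene, since free RNA from broken cardiomyocytes would carry both in the cardiomyocyte ratio. At day 6, other cells held 2.37 *Acta2* UMIs and 0.506 *Actc1* UMIs for each *Tnnt2* UMI, and Myl7-high cells 1.18 and 1.495. Cdh5-positive cells of day 6 held 1.57 and 0.687. At day 11, Myl7-high cells held 0.319 *Acta2* UMIs and 1.477 *Actc1* UMIs for each *Tnnt2* UMI, other cells 1.11 and 1.40, and Cdh5-positive cells 0.314 and 0.962. At day 11 the *Acta2* value of Cdh5-positive cells and the *Actc1* value of other cells were thus near those of Myl7-high cells. The remaining values of both days lay further away from those of the whole Myl7-high class. That class itself varied. At day 6 it held 0.819 *Actc1* UMIs for each *Tnnt2* UMI in the set with the least *Myl7* and 2.21 in that with the most. The 0.687 of Cdh5-positive cells was closer to 0.819 than to 1.495. The *Acta2* values of the *Myl7* sets lay between 1.11 and 1.29 at day 6. At day 11 the *Acta2* value was 0.536 in Myl7-high cells with *Shox2* and 0.155 without. Of the other cells of day 11, 54 with mostly sarcomeric actin held 8254 of the 11521 *Actc1* UMIs and 4661 of the 8219 *Tnnt2* UMIs, so the *Actc1* value of that class says little about the rest. The part of free RNA in these low values was not tested.

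Among the other cells, *Acta2* differed between the sets with mesenchymal genes. At day 6 it was at 276 CPM in the 393 cells with at least 2 UMIs of *Lhx2*, at 182 CPM in the 1623 with *Pdgfra* and at 17.8 CPM in the 524 with *Sox2*. Smooth muscle actin, nearly all *Acta2*, made 1.10% of the actin with *Wt1* and 1.74% with *Tcf21* at day 6, against 1.99% over all other cells. At day 11 *Acta2* was highest in the sets with *Tcf21* (236 CPM, 813 cells) and *Wt1* (222 CPM, 417 cells), both genes of epicardial and related mesenchyme. It was low with *Sox2* (22.1 CPM) and *Sox10* (8.72 CPM, 7 UMIs). Smooth muscle actin made 1.83% of the actin in the 1172 cells with *Pdgfra* and 0.425% with *Lhx2* at day 11, against 1.80% over all other cells. *Actg2*, the visceral smooth muscle actin, was rare everywhere, with 19, 114, 88 and 322 UMIs in all kept cells of the 4 days. At day 11 *Actg2* was at 7.60 CPM in the *Tcf21* set (81 UMIs). A single cell held 67 of the 322 UMIs of that day, and it lay in the *Wt1* set, whose level was 12.9 CPM with this cell and 1.53 CPM without it.

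The 49 other cells of day 11 with *C1qb*, a complement gene of macrophages, had an actin make-up of their own. *Actb* stood at 12767 CPM, against 3983 CPM over all other cells, and made 76.7% of their actin. They held 18.6 actin UMIs for each tropomyosin UMI, and their *Tpm1* level was 83.2 CPM. In 54 other cells of day 11 more than 50% of the actin was sarcomeric. Of these, 50 had at least 1000 CPM of *Myl7*, none had a UMI of *Myh3* or *Myod1*, and *Tnnt2* stood at 4439 CPM, so they carried cardiomyocyte markers below the *Myl7* limit.

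*Acta1* appeared at day 5 outside muscle. It was at 0.255 CPM at day 4, 9.50 CPM at day 5, 2.59 CPM at day 6 and 34.5 CPM at day 11, and the day-5 level was 37.2 times that of day 4 (28.0 to 50.5). At day 5 no cell was Myl7-high and only 4 held *Myog*. The 1888 *Acta1* UMIs of that day lay in 452 cells, and 50 cells held 57.5% of them, compared with 97.9% at day 6 and 96.0% at day 11. *Acta1* was at 19.98 CPM in the 1862 other cells with at least 2 UMIs of the epithelial gene *Epcam* and at 18.9 CPM in the 394 with *Mesp1*, against 1.87 CPM with *Sox2*.

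The 185 other cells of day 5 with at least 2 *Acta1* UMIs, a set chosen after its values were seen, were compared with the 5812 that had none. *Actc1* was at 159 CPM in them against 5.43 CPM, a ratio of 29.3, and *Acta2* at 73.0 against 7.30 CPM. Further actin binding and contractile genes were also higher, *Tagln* at 157 against 8.01 CPM, *Cnn1* at 17.7 against 1.14 CPM, *Myl9* at 82.3 against 6.999 CPM and *Myl7* at 84.1 against 15.9 CPM. *Tnnt2* was not (1.95 against 3.72 CPM), *Myh6* and *Myog* had no UMI in them, and *Myh3* and *Myh7* had 1 each. *Actg1* (3416 against 2284 CPM) and *Actb* (3305 against 2665 CPM) differed less, and *Tpm1* was at 612 against 514 CPM. *Epcam* reached 2 UMIs in 70.3% of these cells (63.1% to 76.8%) and in 28.1% of the cells without *Acta1*. The epithelial keratin gene *Krt19* stood at 168 against 24.9 CPM. The endoderm genes *Foxa2* (28.7 against 5.81 CPM) and *Sox17* (45.2 against 13.0 CPM) were also higher, as was *Mesp1* (29.2 against 12.1 CPM), whereas *T* was lower (3.19 against 8.76 CPM). Within cells that had *Epcam*, the *Actc1* ratio was 14.4 and the *Tagln* ratio 14.7. Median depths were 25978 and 27921 UMIs.

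**Figure D5:**
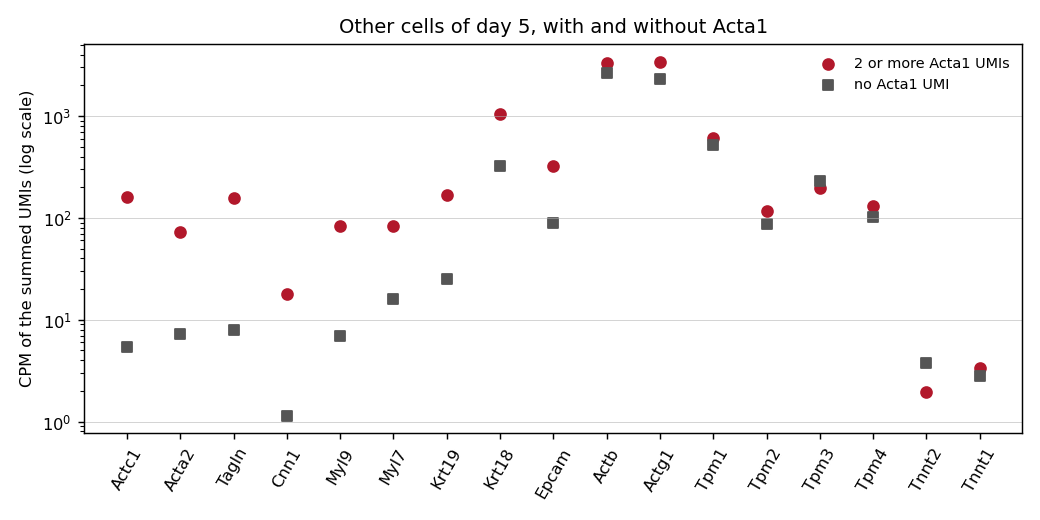
Levels (CPM of the summed UMIs, log scale) in other cells of day 5 with at least 2 UMIs of *Acta1* (185 cells, red circles) and with none (5812 cells, grey squares). *Actc1*, *Acta2*, *Tagln*, *Cnn1* and *Myl9* lie far apart, whereas *Actb* and the tropomyosins lie close together, and the troponin gene *Tnnt2* lies lower in the cells with *Acta1*.

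The partners of the thin filament were read from a list of 43 genes of troponins, actin caps, actin binding proteins and serum response factor with its partners, of which 32 passed the minimum at day 6 and 39 at day 11. In Myl7-high cells 13 were at least 2-fold higher and 1 lower at day 6, and 15 higher and 8 lower at day 11, with median ratios of 1.42 and 1.35. Over all tested genes the shares were 5.96% higher and 10.0% lower with a median of 0.924 at day 6, and 9.83% higher and 20.9% lower with a median of 0.802 at day 11, so the share of lower genes at day 11 was near that of all genes. Of the higher genes, 3 at day 6 (*Tnni3*, *Actn2* and *Cnn1*) and 4 at day 11 (*Lmod2*, *Lmod3*, *Cnn1* and *Myocd*) passed the minimum only through the Myl7-high cells and so had to be higher there. The highest tested ratios of day 11 were those of the troponin *Tnnc1* (80.1) and the filament nucleator *Lmod2* (77.1), and the lowest those of *Tagln3* (0.0690) and *Tmod2* (0.0992), a filament cap of neurons. The thymosin *Tmsb4x*, which binds free actin, was at 1147 against 3728 CPM and the filament cap *Tmod3* at 19.5 against 56.4 CPM. Other widely expressed actin binding genes were level or higher in the class, among them *Pfn1* (1.04), *Capzb* (1.35) and *Dstn* (4.61).

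In Myog-positive cells 14 of the 39 were higher and 9 lower, with a median of 1.18, beside 3.48% higher, 20.8% lower and a median of 0.767 over all tested genes. The share of lower genes was near that of all genes, and 5 of the higher ones (*Tnnt3*, *Tnni2*, *Tnnc2*, *Lmod3* and *Neb*) passed the minimum only through these cells and so had to be higher. The fast troponins *Tnnc2* (1242 against 0.530 CPM) and *Tnnt3* (225 against 0.952 CPM) had the highest ratios, and *Myocd* (0.253 against 3.51 CPM, 1 UMI) and *Tnni3* (7.35 against 41.9 CPM) the lowest. In Cdh5-positive cells 4 were higher and 10 lower of the 32 at day 6, and 4 higher and 19 lower of the 39 at day 11, with medians of 0.889 and 0.555. The shares over all tested genes were 7.00% and 9.40% at day 6 and 6.74% and 17.2% at day 11, with medians of 0.921 and 0.846. *Tagln2* (11.0) and *Tmod3* (2.63) were highest there at day 11, and *Tagln* (0.0365) and *Tagln3* (0.0735) lowest.

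The genes whose levels were most like those of a member were found over the 10 sets of class and day, as Pearson correlations of log2(CPM + 10) among 4632 genes. These sets share libraries and depth, and the values are descriptions. For *Actc1* they were *Tnnc1* (0.987), *Tnnt2* (0.984) and *Myl4* (0.979), and for *Acta1* the fast troponin gene *Tnni2* (0.986), *Mylpf* (0.981) and *Rxrg* (0.979). For *Acta2* they were *Slc22a17* (0.991), *Ttn* (0.988) and *Ccdc141* (0.976). *Tpm1* was closest to *Nexn* (0.974), a gene of the sarcomere, and *Tpm2* to *Rtn4* (0.945) and *Rxrg* (0.943). *Actb* and *Actg1* were closest to each other (0.975), *Tpm4* to *Actb* (0.932), and *Tpm3* to *Fscn1* (0.941), an actin bundling gene. *Actg2* had no close match (*Appl1*, 0.806).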

How the data were processed

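Single-cell libraries (Chromium 3' v3.1) of 4 days were analysed, 1 for each day. The authors deposited UMI counts per gene and cell, not normalized, from Cell Ranger on mm10; the submitters' processing notes name version 3.1.0, and the matrix header of day 11 names 6.0.1. Library totals ran from 149169498 to 236714826 UMIs. From these counts, cells were kept that had more than 200 genes, less than 20% of UMIs from mitochondria and more than 5% from ribosomal protein genes, and whose depth on the log10 scale was no more than 3 scaled median absolute deviations from the median. Doublets were scored against simulated cell pairs, and the highest 8% (457 to 683 cells a library) were left out.

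Members, classes and lists were chosen with earlier results of these data known. UMIs were summed over the cells of a set and given as CPM or as shares of the actin or tropomyosin UMIs, with exact Poisson intervals for levels, Clopper-Pearson intervals for shares and conditional binomial intervals for ratios. With 1 library a day no test was made. Called means at least 2-fold, among genes with at least 5 CPM over all kept cells of the day and without *Myl7*, *Myog* and *Cdh5*. Named genes were the members, the class markers, the 3 genes most like each member, and the 2 highest and 2 lowest of the thin filament list in each class of day 11. *Tmsb4x*, *Tmod3*, *Pfn1*, *Capzb* and *Dstn* in Myl7-high cells, the list genes that passed the minimum through 1 class and the genes of the cells with *Acta1* were named after their values were seen. Ratio and interval code was tested on simulated data. Alternatives were 2 other *Myl7* limits, a minimum of 2 UMIs, doublets left in, every cell with more than 200 genes, means over cells, thinning to 5000 UMIs and cells of 2 classes kept. In the thinned alternative the classes were drawn anew, whereas shares of cells with a UMI of *Acta1* after thinning used the classes as first drawn. Python 3.11.15, NumPy 2.4.6, SciPy 1.17.1 and scikit-learn 1.9.0 were used. Reads of *Tpm3* and of its copy *Tpm3-rs7* may have been split.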

Additional observations from a re-analysis of the deposited data

Results flagged for a closer look

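Several members stood on opposite sides of the other cells at different days, each time with a counting interval that left out a ratio of 1. With 1 library a day the difference itself was not tested. In Myl7-high cells the ratio to other cells went from 1.16 at day 6 to 0.273 at day 11 for *Actb*, from 1.26 to 0.229 for *Tpm4*, and from 3.67 to 0.277 for *Actg2*. The day-6 value of *Actb* depended on the cells near the *Myl7* limit: *Actb* was at 5509 CPM in the 206 cells with 3000 to 10000 CPM of *Myl7*, 3215 CPM in the 164 cells up to 20000 CPM and 2158 CPM in the 54 cells above, against 3540 CPM in other cells. *Tpm4* was at 329, 232 and 154 CPM in these sets, against 210 CPM. In Cdh5-positive cells the ratios at days 5, 6 and 11 were 0.945, 1.22 and 1.10 for *Actg1*, and 5.58, 0.122 and 0.0559 for *Actg2*. At day 11 a single other cell held 67 of the 278 *Actg2* UMIs of the class. The *Actg2* values rest on few UMIs, with 21, 1 and 2 in the Cdh5-positive cells of the 3 days.

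*Tpm3-rs7*, a near-identical copy of *Tpm3* that no comparison used, held 658, 723, 649 and 248 UMIs in the kept cells of days 4, 5, 6 and 11. Its level at day 11 was 4.76 CPM in Cdh5-positive cells and 0.503 CPM in Myl7-high cells, the same order as *Tpm3*.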

How the results depend on the processing

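All values come from 1 library a day, so the limits below are those of processing and counting, and day 11, the shallowest library, was the least deep. No paired analysis was possible because each day had 1 library and no test was made. Of 80 alternative values of the 10 main shares, 21 lay inside the counting interval of the reported share and 59 outside it. The largest move was 16.66 percentage points. A reversal was not defined for shares. The cause of these moves was not tested.

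The sarcomeric share of all cells at day 11 was 27.98% with doublets left in, 29.27% with every cell of more than 200 genes, 13.10% as a mean over cells and 19.93% with cells thinned to 5000 UMIs. In Myl7-high cells of day 6 it was, with those settings in that order, 33.43%, 33.58%, 26.93% and 32.26%, with *Myl7* limits of 1000 and 10000 CPM 27.94% and 45.73%, and with cells of 2 classes kept 34.21%. At day 11 it was 65.58% with doublets, 66.32% with every cell, 64.86% thinned, 67.59% and 70.44% at the 2 limits and 68.16% with cells of 2 classes. In Myog-positive cells it was 47.56% with doublets, 47.57% with every cell, 31.59% as a mean over cells, 55.28% thinned, 51.04% with cells of 2 classes and 54.09% with a minimum of 2 UMIs. In the thinned setting the classes were drawn anew on the thinned counts, so cells could leave their class. With the Myog-positive cells as first drawn, *Actc1* made 40.69% and *Acta1* 7.107% of actin after thinning, beside 41.19% and 7.061% before.

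The *Acta2* share of Myl7-high cells at day 6 was 26.20% with doublets, 26.05% with every cell, 25.19% as a mean, 26.71% thinned, and 23.56% and 30.24% at the 2 limits. At day 11 these were 14.62%, 13.89%, 11.81%, 15.74%, 14.40% and 15.81%. The *Tpm1* share there was 97.02%, 97.06%, 96.02%, 97.04%, 97.21% and 97.66%. The cytoplasmic share of Cdh5-positive cells at day 11 was 99.00%, 99.14%, 99.27%, 99.66%, 99.50% and 98.82%, with cells of 2 classes 97.28% and with a minimum of 2 UMIs 99.51%. Their *Tpm4* share was 35.82% with doublets, 36.84% with every cell, 36.79% at the limit of 10000 CPM, 32.79% with cells of 2 classes and 39.76% with 2 UMIs. The *Tpm2* share of Myog-positive cells was 37.95% as a mean, 54.56% thinned, 48.70% at the limit of 10000 CPM, 37.24% with cells of 2 classes and 54.80% with 2 UMIs. Thinned with the class as first drawn, it was 50.54%.

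Of 350 alternative values of 50 ratios, 2 reversed, those of *Actc1* in Cdh5-positive cells with cells of 2 classes kept (2.778 at day 6 and 1.131 at day 11). A reversal was counted only where the reported ratio was past 2-fold. Ratios nearer 1, such as that of *Actb* in Myl7-high cells of day 6 (1.159), could not be counted. With minimum levels of 1 and 50 CPM, the genes at least 2-fold higher in Myl7-high cells of day 6 numbered 992 and 105 in place of 584, and those lower 1739 and 199 in place of 982. At day 11 they were 1492 and 287 in place of 1023 higher and 3480 and 462 in place of 2173 lower. In Myog-positive cells they were 578 and 77 in place of 362 higher and 3782 and 320 in place of 2165 lower. In Cdh5-positive cells they were 1127 and 73 in place of 686 higher and 1838 and 140 in place of 921 lower at day 6, and 1082 and 101 in place of 701 higher and 3230 and 287 in place of 1785 lower at day 11.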
